A study of Mus musculus with 24 samples.

Results

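The 49 genes described here are the cell cycle and DNA replication genes of the mouse ear: 18 genes that act in or just before S phase, 28 genes of G2 and mitosis, and 3 transcriptional regulators of the cycle, E2f1, Mybl2 and Foxm1. They were picked by symbol as textbook members of these processes, and all 49 matched a row of the deposited table by Ensembl gene ID, out of 51912 rows. The RNA came from whole ears of C57BL/6 mice, in 4 groups of 6 libraries. The mutant group carries a Card14LSL-E138A knock-in, in which the endogenous Card14 gene, coding for a scaffold protein of NF-kB signalling in keratinocytes, produces the psoriasis-associated E138A form once tamoxifen activates CreERT2; its ears were taken 5 days and 1 month after the first tamoxifen dose. Wild-type ears were taken at the same times, and all 4 groups, wild types included, had received intraperitoneal tamoxifen daily on 3 consecutive days. The promoter that drives CreERT2, the age and the sex of the mice are not in the labels, nor is it stated whether each library is a separate animal, so p-values measure only the spread between these libraries. A count per gene cannot show the E138A base change, and the genotypes rest on the labels.

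A dividing cell first licenses its replication origins, copies its DNA in S phase and then separates the chromosomes in mitosis. E2F transcription factors drive the S phase genes, while the MuvB complex with MYBL2 and FOXM1 drives the G2 and mitosis genes, the best known sites being E2F sites in the first class and a CHR element (cell cycle genes homology region) with CCAAT boxes, bound by NF-Y, in the second. In skin the cycle runs mainly in basal keratinocytes and the hair matrix, and faster keratinocyte turnover is a known feature of psoriasis.

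Library totals were 16803680 to 18852963 counts in day 5 mutants, 15661515 to 16998900 in day 5 wild types, 20608274 to 23022149 in 1 month mutants and 19255028 to 23904976 in 1 month wild types. Every library held skin RNA: the summed level of 7 basal keratinocyte markers (Krt5, Krt14 and others) was 11410 CPM or more in each, CPM being counts scaled to a common library total. These markers do not tell ear from other skin. At 1 month 4 libraries stood apart from the rest, mutant replicates 1, 2 and 6 and wild-type replicate 2. The summed CPM of 4 Y-linked genes was 16.78 to 61.48 there and 103.5 to 285.7 in the other 20 libraries, and their gene levels tracked the GC content of the transcripts more positively (r of 0.24 to 0.55 across 17236 genes, against -0.36 to 0.30 in the other 20). Results that rest on these 4 libraries are given with and without them.

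The 300-base promoter windows of 6 members are printed because they carry the words that part the classes; the 6 were chosen after the matches were seen. Each window runs from 250 bases before the annotated transcription start to 50 bases after it, read 5′ to 3′ on the gene's own strand from the RefSeq annotation of GRCm38.p6. Capitals mark E2F words in the S phase genes, CHR words and CCAAT boxes in the mitosis genes, and all of these in Cdk1. Mcm5 (chr8:75109259-75109558, plus strand) and Mcm6 (chr1:128359656-128359955, minus strand) code for subunits of the replicative helicase. Cdc20 (chr4:118437294-118437593, minus strand) codes for an activator of the anaphase-promoting complex, Ccnb2 (chr9:70421505-70421804, minus strand) for a mitotic cyclin, Ube2c (chr2:164769679-164769978, plus strand) for a ubiquitin-conjugating enzyme of that complex, and Cdk1 (chr10:69352863-69353162, minus strand) for the kinase that starts mitosis.
Mcm5: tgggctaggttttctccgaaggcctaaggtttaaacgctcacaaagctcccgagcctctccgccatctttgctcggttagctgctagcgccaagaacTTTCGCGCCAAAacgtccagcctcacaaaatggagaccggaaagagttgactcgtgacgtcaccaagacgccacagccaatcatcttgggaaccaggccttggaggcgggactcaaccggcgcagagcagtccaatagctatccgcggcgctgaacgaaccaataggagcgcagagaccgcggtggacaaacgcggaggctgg
Mcm6: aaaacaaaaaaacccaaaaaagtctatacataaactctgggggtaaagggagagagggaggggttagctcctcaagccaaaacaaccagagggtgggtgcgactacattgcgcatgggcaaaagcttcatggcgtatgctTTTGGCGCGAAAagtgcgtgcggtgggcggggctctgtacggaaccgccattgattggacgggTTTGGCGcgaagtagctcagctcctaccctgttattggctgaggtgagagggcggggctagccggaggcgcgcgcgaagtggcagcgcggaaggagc
Cdc20: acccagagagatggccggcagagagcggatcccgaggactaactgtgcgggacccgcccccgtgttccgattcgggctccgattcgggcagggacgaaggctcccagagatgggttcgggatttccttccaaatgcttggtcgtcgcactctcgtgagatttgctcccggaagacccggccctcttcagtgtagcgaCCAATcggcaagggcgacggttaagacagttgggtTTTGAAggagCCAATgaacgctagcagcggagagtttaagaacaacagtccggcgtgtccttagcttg
Ccnb2: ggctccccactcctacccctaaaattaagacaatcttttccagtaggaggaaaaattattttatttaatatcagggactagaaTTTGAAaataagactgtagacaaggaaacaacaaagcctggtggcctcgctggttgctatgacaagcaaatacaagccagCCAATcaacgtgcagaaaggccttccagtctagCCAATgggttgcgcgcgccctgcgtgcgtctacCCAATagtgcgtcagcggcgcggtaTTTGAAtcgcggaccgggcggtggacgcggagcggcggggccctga
Ube2c: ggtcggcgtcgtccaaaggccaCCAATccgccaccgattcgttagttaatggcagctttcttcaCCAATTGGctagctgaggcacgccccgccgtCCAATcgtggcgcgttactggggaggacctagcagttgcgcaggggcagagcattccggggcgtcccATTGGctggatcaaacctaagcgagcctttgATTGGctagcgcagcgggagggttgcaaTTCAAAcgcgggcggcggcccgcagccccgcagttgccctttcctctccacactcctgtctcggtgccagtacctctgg
Cdk1: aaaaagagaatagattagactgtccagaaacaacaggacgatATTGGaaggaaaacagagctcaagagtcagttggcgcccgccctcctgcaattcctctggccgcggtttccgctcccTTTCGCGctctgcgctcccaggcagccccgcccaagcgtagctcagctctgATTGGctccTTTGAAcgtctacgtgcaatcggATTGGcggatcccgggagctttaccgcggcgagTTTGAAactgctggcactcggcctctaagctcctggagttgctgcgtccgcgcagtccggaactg
Both helicase windows hold E2F words in which matches on the 2 strands overlap. The mitosis windows hold CHR words close to the start, at -18 in Cdc20, 5 in Ccnb2, -29 in Ube2c and -15 in Cdk1, counted from the start to the first base of the word, with CCAAT boxes further upstream and, in Cdc20, one more box at -8, between the CHR word and the start. The Mcm5 and Mcm6 windows hold CCAAT boxes as well, and the Mcm5 window a CHR word at -221, none of which are in capitals there.

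A window was found for 41 of the 49 genes (15 S phase, 24 G2 and mitosis, 2 regulators) and for 27025 genes in all. An E2F word (TTTGGCG, its variant TTTCGCG, the form TTTCCCG or the form TTTGCCG, on either strand) stood in 7 of 15 S phase windows (46.7%) and in 4 of 24 G2 and mitosis windows (16.7%), against 7.65% of all windows. A CHR word (TTTGAA or its variant TTTAAA, on either strand) stood in 21 of 24 G2 and mitosis windows (87.5%) and in 6 of 15 S phase windows (40%), against 30.6% of all. A CCAAT box, on either strand, stood in 20 of 24 G2 and mitosis windows (83.3%), in 10 of 15 S phase windows (66.7%) and in 41.1% of all windows. Both a CHR word and a CCAAT box were in 19 of 24 G2 and mitosis windows (79.2%), in 4 of 15 S phase windows (26.7%) and in 12.2% of all. The CHR words of the G2 and mitosis class lay near the start: 20 of its 24 windows had one between 100 bases before and 50 after, against 14.7% of all windows. The 2 regulators with a window, E2f1 and Mybl2, held none of these words. With the E2F words cut by 1 letter, 10 of 15 S phase, 12 of 24 G2 and mitosis and 27.4% of all windows matched, which brings the classes closer together (66.7% and 50%). With TTTGAA alone as the CHR word, 18 of 24, 2 of 15 and 20.2% matched. A match describes the letters of the window only.

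**Figure D1:**
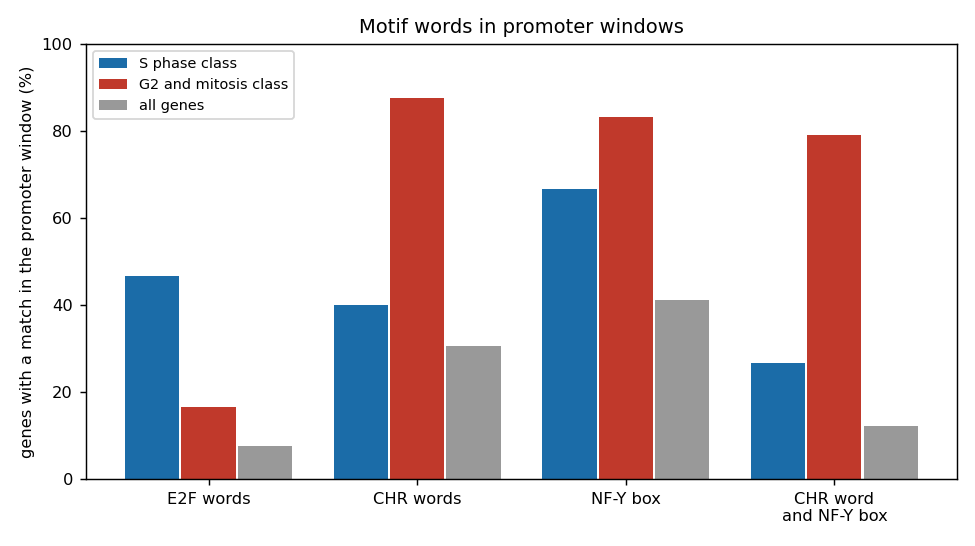
Share of promoter windows (%, y axis) holding each word (x axis) in the S phase class (15 windows), the G2 and mitosis class (24 windows) and all genes (27025 windows). The E2F bar is highest in the S phase class (46.7%) and the bar for a CHR word with a CCAAT box is highest in the G2 and mitosis class (79.2%).

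The summed levels of both classes were higher in mutant ears at both times. At day 5 the summed level of the S phase class was 817 to 1049 CPM in mutants (median 1032) and 425 to 577 CPM in wild types (median 493), a ratio of means of 1.97. The G2 and mitosis sum was 1296 to 1703 CPM in mutants (median 1448) and 580 to 729 CPM in wild types (median 674), a ratio of 2.19. At 1 month the S phase sum was 894 to 1151 CPM in mutants (median 1001) and 364 to 488 CPM in wild types (median 421), a ratio of 2.41. The 1 month G2 and mitosis sum was 964 to 1859 CPM in mutants (median 1336) and 267 to 678 CPM in wild types (median 459), a ratio of 3.15. No mutant library overlapped a wild-type library of its time in either sum. The 1 month G2 and mitosis sums were the most scattered, at 1387 ± 384 CPM in mutants and 440 ± 155 CPM in wild types (SD, n = 6 each). Without Ccna2, Mki67 and Top2a, which are also high in S phase, the ratios of the G2 and mitosis sum were 2.17 at day 5 and 3.07 at 1 month. In whole tissue, more cycling cells and more of these RNAs per cell cannot be told apart.

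**Figure D2:**
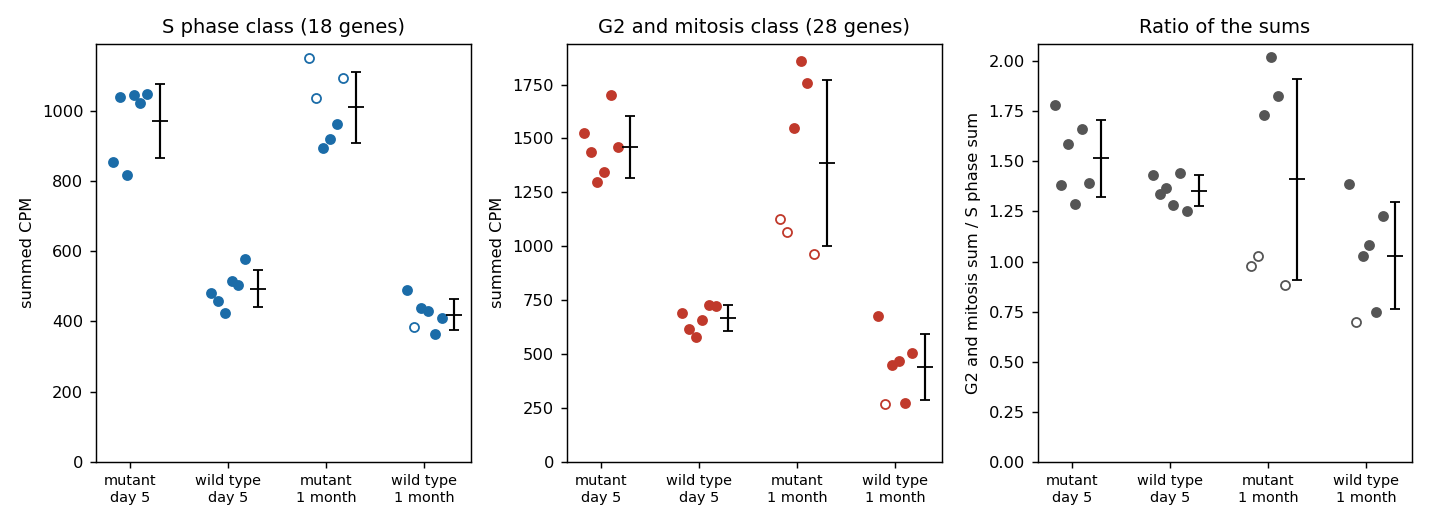
Summed CPM of the S phase class (left) and the G2 and mitosis class (middle) and their ratio (right) in each library by group, with mean and SD beside the points; open points are the 4 libraries low in Y-linked genes. The 6 mutant sums of each class lie above the 6 wild-type sums of the same time, and the open and filled points of the 1 month mutants separate in the ratio.

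Gene by gene, 44 of the 49 were higher and 0 lower in day 5 mutants (edgeR adjusted p below 0.05), where 20.7% of the 17287 genes tested were higher and 20.2% lower. At 1 month 45 were higher and 0 lower, with 25.5% of all genes higher and 21.5% lower. The median log2 fold change of the 49 was 1.14 at day 5 and 1.54 at 1 month, beside -0.02 and 0.05 over all genes. The median was 0.91 at day 5 and 1.33 at 1 month for the S phase class, 1.25 and 1.72 for the G2 and mitosis class, and 0.86 and 1.42 for the 3 regulators. Every mutant library was above every wild-type library in 45 of the 49 genes at day 5 (17.9% of all genes; 16.4% lay wholly below) and in 34 of the 49 at 1 month (12.2% of all genes; 9.05% wholly below). The 2 comparisons share no library. Without the 4 libraries low in Y-linked genes, 47 were higher at day 5 (27.1% of all genes) and 48 at 1 month (26.2%).

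**Figure D3:**
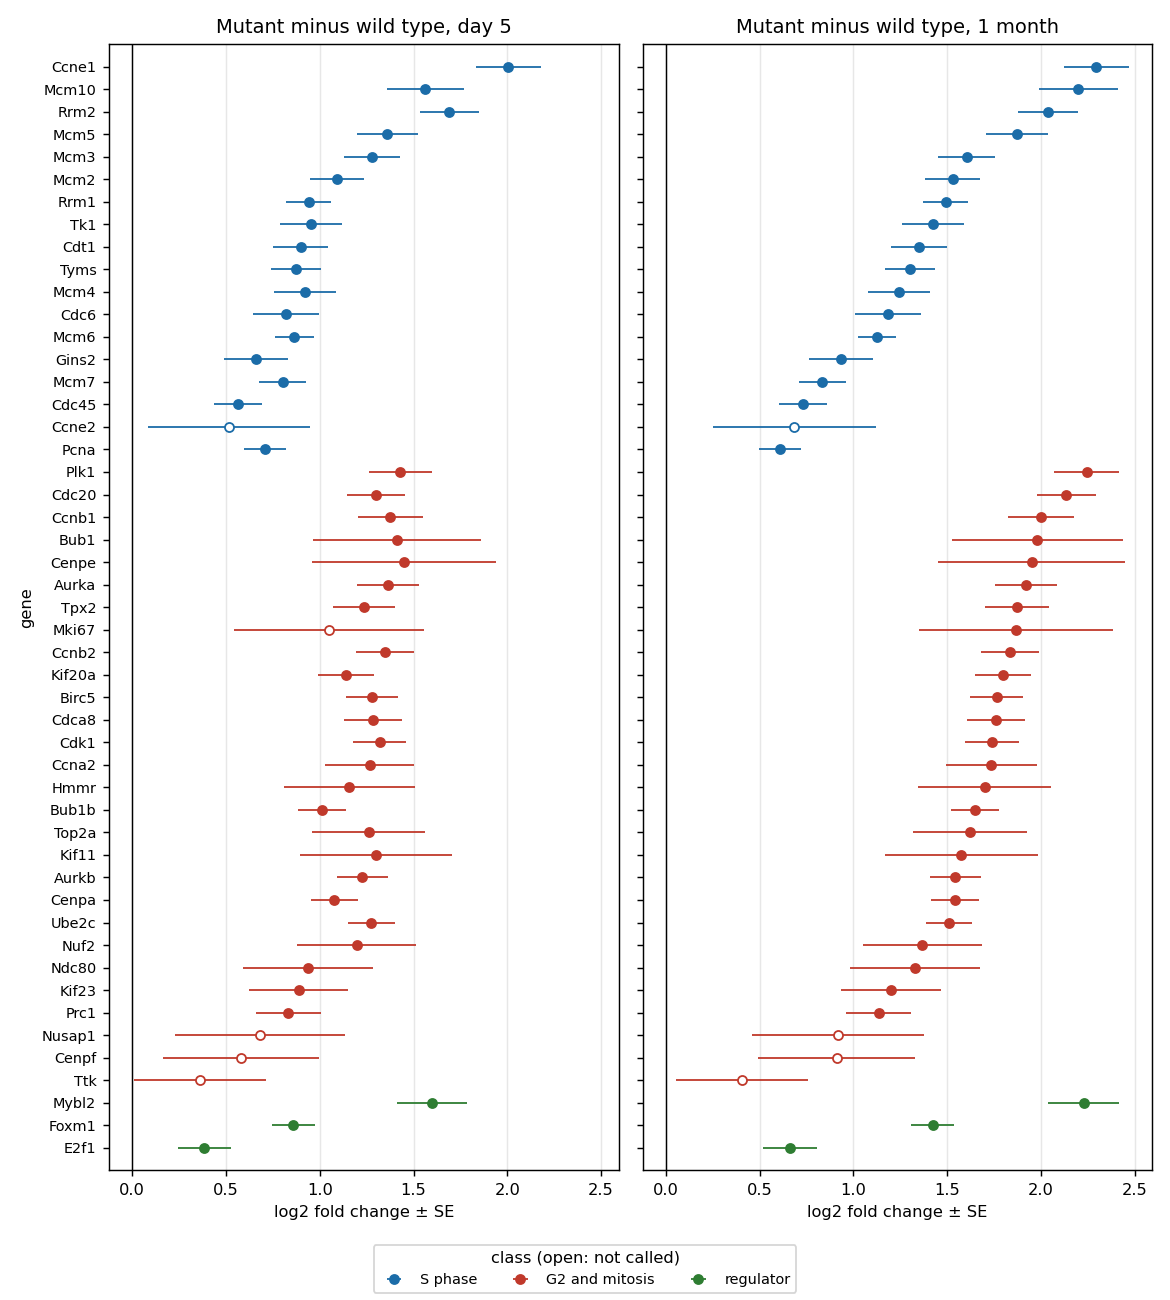
Log2 fold change of each of the 49 genes, mutant minus wild type (x axis), with its standard error, at day 5 (left) and 1 month (right), coloured by class and ordered within a class by the 1 month value; open points did not pass the test. All 49 points lie to the right of 0 in both panels, and the open points are Ccne2, Ttk, Cenpf and Nusap1 in both panels and Mki67 at day 5.

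Among the S phase genes, the largest change was in Ccne1, which codes for cyclin E1, the partner of CDK2 at the entry into S phase. At day 5 Ccne1 ran from 8.75 to 15.3 CPM in mutants (median 12.9), against 2.24 to 4.05 CPM in wild types (median 3.19). At 1 month it ran from 10.5 to 17.9 CPM in mutants (median 12.9), against 2.48 to 3.24 CPM in wild types (median 2.70). The groups did not overlap at either time, and the log2 fold change was 2.01 ± 0.18 at day 5 (SE; edgeR adjusted p = 7.98e-09) and 2.30 ± 0.17 at 1 month (edgeR adjusted p = 9.24e-10). Its relative Ccne2, coding for cyclin E2, did not pass the test at either time.

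Ribonucleotide reductase makes the deoxynucleotides for DNA synthesis. Rrm2, its S phase-restricted small subunit, had 46.5 to 73.7 CPM in day 5 mutants (median 67.3), against 13.8 to 25 CPM in day 5 wild types (median 20.1). At 1 month Rrm2 had 50.9 to 61 CPM in mutants (median 57.9), against 10.2 to 20.7 CPM in wild types (median 12.8). These groups did not overlap, with log2 fold changes of 1.69 ± 0.16 at day 5 (edgeR adjusted p = 2.00e-08) and 2.04 ± 0.16 at 1 month (edgeR adjusted p = 1.24e-09). The large subunit gene Rrm1 changed less: it had 125 to 176 CPM in day 5 mutants (median 157), against 66.2 to 89.6 CPM in day 5 wild types (median 80.4). At 1 month Rrm1 had 154 to 198 CPM in mutants (median 180), against 49.3 to 83.2 CPM in wild types (median 64.1). Its log2 fold change was 0.94 ± 0.12 at day 5 (edgeR adjusted p = 1.48e-06) and 1.49 ± 0.12 at 1 month (edgeR adjusted p = 2.01e-09). The thymidylate genes rose as well, Tyms (thymidylate synthase) by 0.87 and 1.3 and Tk1 (thymidine kinase) by 0.95 and 1.43 on the log2 scale at day 5 and 1 month.

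All 6 subunit genes of the MCM2-7 helicase rose at both times, by log2 fold changes of 0.80 to 1.36 at day 5 and 0.83 to 1.87 at 1 month. Mcm3 had 49.8 to 80.8 CPM in day 5 mutants (median 73.5), against 23.8 to 34.6 CPM in day 5 wild types (median 27.7), a log2 change of 1.28 ± 0.15 (edgeR adjusted p = 5.71e-07). Mcm6 had 87.8 to 114 CPM in day 5 mutants (median 109), against 53.7 to 66.2 CPM in day 5 wild types (median 55.3), a log2 change of 0.86 ± 0.10 (edgeR adjusted p = 6.25e-07). Mcm5 had the largest change of the ring, at 1 month: 61.4 to 111 CPM in mutants (median 79.9), against 18.8 to 24.9 CPM in wild types (median 23.2), a log2 change of 1.87 ± 0.16 (edgeR adjusted p = 5.22e-09). None of these groups overlapped. Mcm7 had the smallest, with 0.80 ± 0.13 at day 5 and 0.83 ± 0.13 at 1 month. The 6 proteins form 1 ring, and their RNA levels per kilobase of transcript can be set side by side: at day 5 they averaged 16.2 (Mcm2) to 25.6 (Mcm7) CPM per kilobase in mutants and 7.60 (Mcm2) to 14.7 (Mcm7) in wild types. At 1 month they averaged 18.2 (Mcm2) to 26.7 (Mcm7) CPM per kilobase in mutants and 6.31 (Mcm2) to 15 (Mcm7) in wild types.

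The genes that load or activate the helicase also rose at both times. Mcm10, an activation factor, changed by 1.56 ± 0.21 and 2.20 ± 0.21 (log2, day 5 and 1 month), Cdt1 by 0.90 ± 0.15 and 1.35 ± 0.15, and Cdc6 by 0.82 ± 0.18 and 1.19 ± 0.18; CDT1 and CDC6 are the loading factors. Cdc45 and Gins2, whose products join the helicase at firing, changed by 0.57 ± 0.13 and 0.73 ± 0.13 and by 0.66 ± 0.17 and 0.94 ± 0.17. Pcna, the sliding clamp, was the only S phase gene whose change was smaller at 1 month (0.61 ± 0.11) than at day 5 (0.71 ± 0.11), a difference that did not pass the interaction test (edgeR adjusted p = 0.856). Pcna had 90.8 to 141 CPM in 1 month mutants and 55.4 to 99 CPM in 1 month wild types, so these groups overlapped. Exons of Gins2 share 67.3% of their bases with Gse1 on the other strand, and whether the authors' counting used strand is not stated in the labels.

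Of the 28 G2 and mitosis genes, 24 rose at day 5 and 25 at 1 month. Ube2c had 27.6 to 36.6 CPM in day 5 mutants (median 32.2), against 11.5 to 16.1 CPM in day 5 wild types (median 13), a log2 change of 1.28 ± 0.12 (edgeR adjusted p = 3.37e-08). Cdk1 had 45 to 57.9 CPM in day 5 mutants (median 52.3), against 17.6 to 23.9 CPM in day 5 wild types (median 21.4), a log2 change of 1.32 ± 0.14 (edgeR adjusted p = 1.66e-07). These are 2 of the promoters printed above, and in neither gene did the groups overlap. At 1 month the log2 fold change was 1.51 ± 0.12 for Ube2c and 1.74 ± 0.14 for Cdk1. Exons of Ube2c share 22.8% of their bases with Tnnc2, a muscle troponin gene on the other strand.

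All 3 genes of the chromosomal passenger complex among the 49 rose; the complex corrects faulty spindle attachments. Birc5, coding for its survivin subunit, had 28.6 to 38.4 CPM in day 5 mutants (median 34.2), against 11.1 to 18.6 CPM in day 5 wild types (median 13.6). At 1 month Birc5 had 29.3 to 45.8 CPM in mutants (median 33.6), against 7.65 to 12.7 CPM in wild types (median 10.1). Aurkb, coding for its kinase, had 28.2 to 36.4 CPM in day 5 mutants (median 34.1), against 10.2 to 17 CPM in day 5 wild types (median 14.2). The groups of both genes were apart, with day 5 log2 fold changes of 1.28 ± 0.14 for Birc5 (edgeR adjusted p = 1.68e-07) and 1.23 ± 0.14 for Aurkb (edgeR adjusted p = 2.55e-07). Birc5 changed by 1.76 ± 0.14 at 1 month (edgeR adjusted p = 1.53e-09), Aurkb by 1.54 ± 0.14, and the third subunit gene of the 49, Cdca8 (borealin), by 1.28 ± 0.15 at day 5 and 1.76 ± 0.15 at 1 month.

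Cdc20, Plk1 and Bub1b were, with Ccne1 of the S phase class, the 4 genes of the 49 with the smallest adjusted p at 1 month. Cdc20 had 62.5 to 110 CPM in 1 month mutants (median 82), against 15.3 to 22.8 CPM in 1 month wild types (median 18.5), a log2 change of 2.13 ± 0.16 (edgeR adjusted p = 5.72e-10). Plk1, a kinase of spindle assembly and mitotic entry, had 26.6 to 46.5 CPM in 1 month mutants (median 35.3), against 5.57 to 9.58 CPM in 1 month wild types (median 7.62), a log2 change of 2.24 ± 0.17 (edgeR adjusted p = 1.17e-09). Bub1b, coding for the checkpoint protein BUBR1, had 49.5 to 60.7 CPM in 1 month mutants (median 54.2), against 13.1 to 21.7 CPM in 1 month wild types (median 17.4), a log2 change of 1.65 ± 0.13 (edgeR adjusted p = 1.17e-09). The groups did not overlap in any of the 3 genes. At day 5 their log2 fold changes were 1.3 ± 0.15, 1.43 ± 0.17 and 1.01 ± 0.13, in the same gene order.

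The mitotic cyclins Ccna2, Ccnb1 and Ccnb2 rose by log2 fold changes of 1.27 to 1.38 at day 5 and 1.74 to 2.00 at 1 month. Aurka and its activator Tpx2, which build the spindle, rose by 1.36 ± 0.17 and 1.24 ± 0.17 at day 5 and by 1.92 ± 0.17 and 1.87 ± 0.17 at 1 month. The cytokinesis genes Prc1, Kif23 and Kif20a rose by 0.83 to 1.14 at day 5 and 1.14 to 1.80 at 1 month. Cenpa, the centromeric histone, rose by 1.08 ± 0.13 and 1.54 ± 0.13. The kinetochore genes Ndc80, Nuf2 and Cenpe rose with larger errors, by 0.94 ± 0.34, 1.2 ± 0.32 and 1.45 ± 0.49 at day 5 and 1.33 ± 0.35, 1.37 ± 0.32 and 1.95 ± 0.50 at 1 month. Bub1, Kif11, Hmmr and Top2a rose by 1.16 to 1.41 at day 5 and 1.58 to 1.98 at 1 month. The Ndc80 call at day 5 (edgeR adjusted p = 0.0323) was lost when mutant replicate 1, 2 or 5 or wild-type replicate 2, 3 or 6 was left out (adjusted p up to 0.0599).

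All 3 regulators rose at both times. Mybl2 had 15.5 to 32.4 CPM in day 5 mutants (median 26), against 6.29 to 10.1 CPM in day 5 wild types (median 7.90), a log2 change of 1.60 ± 0.19 (edgeR adjusted p = 4.85e-07). At 1 month Mybl2 had 21.3 to 41 CPM in mutants (median 27.5), against 5.05 to 7.78 CPM in wild types (median 5.84), a log2 change of 2.23 ± 0.19 (edgeR adjusted p = 3.50e-09). The groups did not overlap at either time. Foxm1 had 39.9 to 52.5 CPM in day 5 mutants (median 43.1), against 20.9 to 28.3 CPM in day 5 wild types (median 25), a log2 change of 0.86 ± 0.11 (edgeR adjusted p = 2.80e-06). At 1 month Foxm1 had 35.2 to 52.2 CPM in mutants (median 42.8), against 12.8 to 19.1 CPM in wild types (median 16.1), a log2 change of 1.42 ± 0.12 (edgeR adjusted p = 2.10e-09). Foxm1 groups did not overlap either.

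E2f1 changed least of the regulators. It had 13.8 to 19.5 CPM in day 5 mutants (median 16.9), against 10.9 to 14.5 CPM in day 5 wild types (median 12.9), a log2 change of 0.38 ± 0.14 (edgeR adjusted p = 0.0319). At 1 month it had 11.1 to 19.4 CPM in mutants (median 13.6), against 8.01 to 11.5 CPM in wild types (median 8.33), a log2 change of 0.66 ± 0.14 (edgeR adjusted p = 0.000439). The groups overlapped at both times. The day 5 call was lost when mutant replicate 2, 4 or 6 or wild-type replicate 2 or 3 was left out (adjusted p up to 0.0963). The 1 month call was lost without the 4 libraries low in Y-linked genes (log2 fold change 0.29, edgeR adjusted p = 0.0881).

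**Figure D4:**
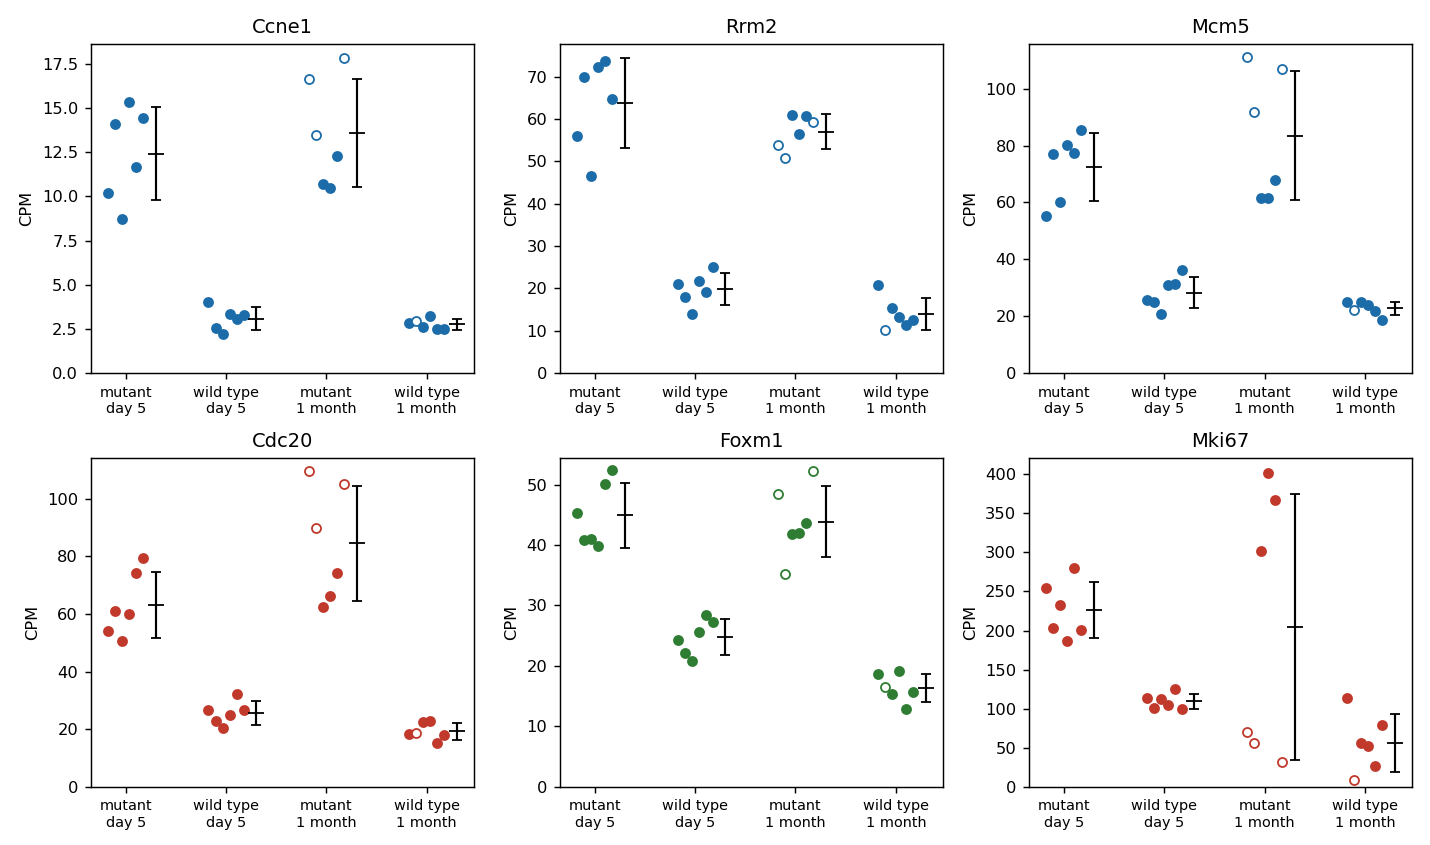
CPM of Ccne1, Rrm2, Mcm5, Cdc20, Foxm1 and Mki67 in each library by group, with mean and SD; open points are the 4 libraries low in Y-linked genes. Mutants lie above wild types of the same time in the first 5 genes, while in Mki67 the 3 open 1 month mutants lie among the wild types.

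Ccne2, Ttk, Cenpf and Nusap1 did not pass the test at either time, and Mki67 did not at day 5. Mki67, the gene of the Ki-67 proliferation antigen, had 187 to 279 CPM in day 5 mutants (median 218), against 99.5 to 125 CPM in day 5 wild types (median 109): the groups did not overlap, yet the log2 fold change of 1.05 ± 0.51 gave an edgeR adjusted p of 0.104. At 1 month Mki67 had 32 to 402 CPM in mutants (median 186), against 9.20 to 114 CPM in wild types (median 54), a log2 change of 1.87 ± 0.52 (edgeR adjusted p = 0.00460), and the groups overlapped. Its spread at 1 month enters the error of the day 5 value, since the 4 groups share 1 estimate of the spread. In a fit of the day 5 libraries alone, all 5 genes passed at day 5: Mki67 (edgeR adjusted p = 7.98e-07), Nusap1 (adjusted p = 0.000119), Cenpf (adjusted p = 0.000943), Ccne2 (adjusted p = 0.00596) and Ttk (adjusted p = 0.00892), with log2 fold changes of 0.37 to 1.06. In a fit of the 1 month libraries alone Mki67 missed the threshold (1.84, edgeR adjusted p = 0.0509) and the other 4 did not pass. With limma voom all 5 passed at both times.

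The checkpoint kinase gene Ttk had 14.8 to 24 CPM in day 5 mutants (median 17) and 12.6 to 15 CPM in day 5 wild types (median 13.7), a log2 change of 0.36 ± 0.35 (edgeR adjusted p = 0.445). At 1 month Ttk had 3.65 to 20.5 CPM in mutants (median 14.1) and 3.04 to 17.6 CPM in wild types (median 10.2), a log2 change of 0.41 ± 0.35 (edgeR adjusted p = 0.370). Its groups overlapped at both times. Ccne2 had 10.6 to 16.5 CPM in day 5 mutants (median 14.5) and 7.18 to 12.2 CPM in day 5 wild types (median 9.63), a log2 change of 0.52 ± 0.43 (edgeR adjusted p = 0.363). At 1 month Ccne2 had 0.827 to 13.9 CPM in mutants (median 9.69) and 1.64 to 11 CPM in wild types (median 4.92), a log2 change of 0.68 ± 0.44 (edgeR adjusted p = 0.210). Ccne2 also overlapped at both times, and 17.4% of its exon bases are shared with Ints8 on the other strand.

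Cenpf, coding for a large kinetochore protein, had 29.8 to 49.3 CPM in day 5 mutants (median 40.0) and 21.6 to 28.7 CPM in day 5 wild types (median 27.1), a log2 change of 0.58 ± 0.42 (edgeR adjusted p = 0.284). At 1 month Cenpf had 4.86 to 51.6 CPM in mutants (median 25.4) and 4.60 to 24.3 CPM in wild types (median 12.2), a log2 change of 0.91 ± 0.42 (edgeR adjusted p = 0.0788). Nusap1, coding for a spindle protein, had 27.5 to 46.6 CPM in day 5 mutants (median 35.7) and 18.3 to 26.1 CPM in day 5 wild types (median 23), a log2 change of 0.68 ± 0.45 (edgeR adjusted p = 0.245). The day 5 groups of both genes did not overlap. At 1 month Nusap1 had 3.11 to 46.3 CPM in mutants (median 22.5) and 3.24 to 22.5 CPM in wild types (median 12.2), a log2 change of 0.92 ± 0.46 (edgeR adjusted p = 0.106). The 1 month groups overlapped in both genes, and each passed the 1 month test when mutant replicate 6 or wild-type replicate 1 was left out, as did Cenpf without mutant replicate 1 or 2 and Ccne2 without mutant replicate 6.

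Without the 4 libraries low in Y-linked genes, Cenpf, Nusap1 and Mki67 passed the test at day 5, with log2 fold changes of 0.60 (edgeR adjusted p = 0.00962), 0.70 (adjusted p = 0.00256) and 1.07 (adjusted p = 0.000266). At 1 month Ccne2, Ttk, Cenpf and Nusap1 passed, with 1.03 (edgeR adjusted p = 0.00565), 0.76 (adjusted p = 0.00664), 1.44 (adjusted p = 2.27e-05) and 1.46 (adjusted p = 1.40e-05). The 1 month change of Mki67 was then 2.43 and that of Kif11 2.05, where all libraries gave 1.58 for Kif11. The median 1 month change of the S phase class was 1.02 without these libraries, against 1.33 with them. The 1 month libraries left in this fit differed in GC dependence between the groups. The correlation of gene levels with GC content was -0.36 to -0.30 in the mutants left. It was -0.36, -0.13, 0.12, 0.22 and 0.30 in the wild types left. The part of this difference in the changes without the 4 libraries was not tested.

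Within the 1 month mutants the 3 libraries low in Y-linked genes differed from the other 3 in opposite directions for the 2 classes. They lay wholly below the other 3 in 16 of the 28 G2 and mitosis genes and wholly above in 7, but wholly below in 2 of the 18 S phase genes and wholly above in 12. The shares of all genes lying wholly below or above in this split were not counted, so these counts only describe the 49 genes. The G2 and mitosis sum averaged 1052 ± 81.4 CPM in the 3 low libraries and 1722 ± 160 CPM in the other 3, and the S phase sum 1094 ± 56.6 CPM and 926 ± 35.2 CPM (SD, n = 3 each). Without Ccna2, Mki67 and Top2a the G2 and mitosis sum averaged 859 ± 53.3 CPM and 1047 ± 84.3 CPM, in the same order. The gene-wise difference followed GC content: the 18 genes wholly below had a median GC of 43.3% and the 21 wholly above a median of 52.9%. Across the 49 genes the correlation of this difference with GC content was r = 0.78 (Spearman's rho 0.87), and across all 17236 genes with a GC value r = 0.71; genes are not independent replicates and share the same 6 libraries. Within each library the correlation of gene levels with GC content was 0.24 to 0.55 in the 3 low libraries and -0.36 to -0.30 in the other 3. The gene-wise difference also fell with transcript length. Its correlation with log2 length was r = -0.53 across the 49 genes and r = -0.36 across all 17236 genes. By class this correlation was -0.70 for G2 and mitosis and -0.08 for S phase. The part of GC content, of transcript length and of whatever set the Y-linked levels in this split was not tested.

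**Figure D5:**
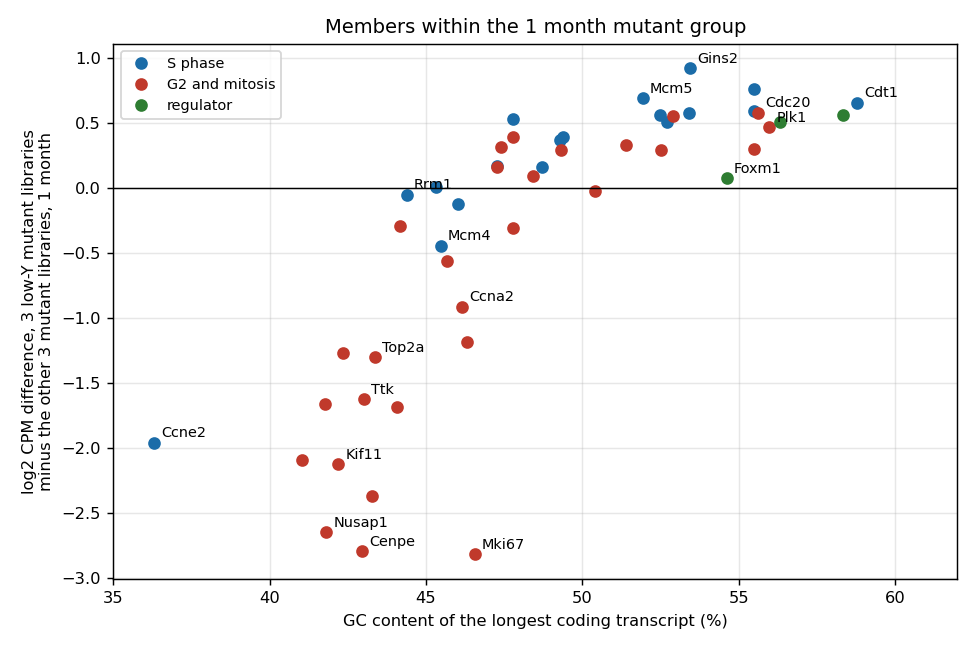
Difference in log2 CPM between the 3 mutant libraries of 1 month with low Y-linked sums and the other 3 (y axis) against the GC content of the longest coding transcript (%, x axis), 1 point per gene, coloured by class. Points climb with GC (r = 0.78 over 49 genes), with Mki67 (-2.82), Cenpe (-2.80) and Nusap1 (-2.65) lowest and Gins2 (0.92) and Tk1 (0.77) highest.

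The ratio of the G2 and mitosis sum to the S phase sum therefore depended on these libraries at 1 month. It averaged 1.52 ± 0.19 in day 5 mutants and 1.35 ± 0.08 in day 5 wild types, and 1.41 ± 0.50 in 1 month mutants and 1.03 ± 0.27 in 1 month wild types (SD, n = 6 each). The ranges overlapped in both comparisons. Among 1 month mutants the ratio was 0.96 ± 0.07 in the 3 libraries low in Y-linked genes and 1.86 ± 0.15 in the other 3, and among 1 month wild types it was 0.70 in the 1 low library and 0.75 to 1.39 in the other 5. These ratios include Ccna2, Mki67 and Top2a, without which the G2 and mitosis sum differed less between the 2 sets of mutant libraries.

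By sign, the mutant effect was larger at 1 month than at day 5 in 48 of the 49 genes. The share of all genes with a larger effect by sign was not counted. The median difference of log2 fold changes was 0.43 over the 49 and 0.02 over all genes. Some signs turned under other settings, such as Gins2 (as low as -0.27) and Ttk (as low as -0.14). The interaction test called 6 of the 49 higher and 0 lower, where 4.68% of all genes were called higher and 4.09% lower. The 6 were Rrm1 (0.55 ± 0.17, edgeR adjusted p = 0.0418), Plk1 (0.81 ± 0.24, adjusted p = 0.0327), Bub1b (0.64 ± 0.18, adjusted p = 0.0250), Cdc20 (0.83 ± 0.21, adjusted p = 0.0148), Kif20a (0.66 ± 0.21, adjusted p = 0.0490) and Foxm1 (0.57 ± 0.16, adjusted p = 0.0284), as differences of log2 fold changes. Kif20a, a cytokinesis kinesin gene, had 40.6 to 52 CPM in 1 month mutants (median 46.2) against 8.23 to 16.6 CPM in 1 month wild types (median 13.7), and 37.8 to 60.9 CPM in day 5 mutants (median 43.7) against 18.3 to 25.6 CPM in day 5 wild types (median 20.9). In Kif20a, as in Foxm1, the mutant medians of the 2 times lay close together and the wild-type level was lower at 1 month. Exons of Kif20a share 29.3% of their bases with Cdc23 on the other strand.

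These 6 calls were near the threshold. Leaving out 1 library gave 1 to 8 calls. The count was 1 to 3 without mutant 1 month replicate 6, mutant day 5 replicate 1, 2, 3 or 4, wild-type 1 month replicate 2 or 5, or wild-type day 5 replicate 1, 5 or 6. Without the 4 libraries low in Y-linked genes 9 genes were called (9.58% of all genes), of which Rrm1, Bub1b and Foxm1 were among the 6, and Cenpe, Cenpf, Ndc80, Tpx2, Hmmr and Mki67 were added. The median interaction of the S phase class was 0.34 with all libraries and 0.07 without these 4, and that of the G2 and mitosis class 0.47 with all libraries and 0.57 without them.

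Between the times, 11 of the 49 genes passed the test in wild-type ears and none in mutant ears. In wild types the 11 were lower at 1 month than at day 5 and 0 were higher, where 2.81% of all genes were lower and 6.28% higher: Cdt1, Rrm2, Ccna2, Ccnb1, Plk1, Aurkb, Bub1b, Kif20a, Tpx2, E2f1 and Foxm1. The largest of these were Ccna2 (-0.91 ± 0.24, edgeR adjusted p = 0.0177), Kif20a (-0.68 ± 0.15, adjusted p = 0.00553) and Tpx2 (-0.65 ± 0.17, adjusted p = 0.0148). Every 1 month library was below every day 5 library in Cdt1, Kif20a and Foxm1 (2.16% of all genes; 2.90% wholly above). Foxm1 changed by -0.60 ± 0.11 (edgeR adjusted p = 0.00209). Cdt1 had 8.58 to 9.84 CPM at 1 month (median 9.62) and 11 to 17.6 CPM at day 5 (median 13.6) in wild types, a change of -0.56 ± 0.15 (edgeR adjusted p = 0.0194). The count was 5 to 7 without wild-type 1 month replicate 2, 5 or 6 or day 5 replicate 1, 4, 5 or 6, and 18 without 1 month replicate 1. It was 14 (5.89% of all genes) without the 4 libraries low in Y-linked genes.

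In mutants edgeR called 0 of the 49 between 1 month and day 5 at an adjusted p below 0.05 (11.2% of all genes were higher and 8.23% lower, with 5.05% wholly above and 3.56% wholly below), and the groups overlapped in all 49. At an unadjusted p below 0.05 there were 2 (Cdc20, 0.42, and Cdca8, 0.32, both higher at 1 month), DESeq2 called 1 and limma voom 6. The summed S phase level was 1010 ± 101 CPM at 1 month and 972 ± 106 CPM at day 5 in mutants (SD, n = 6 each). Without the 4 libraries low in Y-linked genes 4 genes passed, Cdt1 (-0.48), Gins2 (-0.50) and E2f1 (-0.52) lower and Cenpe (0.75) higher at 1 month. In that fit 10.4% of all genes were higher and 13.1% lower, so the 49 were called less often than genes at large. The contrasts between the times share libraries with the mutant contrasts and are not independent of them.

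Most replication and mitosis genes in lists outside the 49 also rose. Of 33 further replication genes 28 rose and 0 fell at day 5, and 30 rose and 0 fell at 1 month, where 20.7% and 25.5% of all genes were higher. Orc1, of the origin recognition complex, had 6.47 to 11.2 CPM in day 5 mutants (median 9.81), against 1.57 to 2.72 CPM in day 5 wild types (median 2.17), a log2 change of 2.09 ± 0.22 (edgeR adjusted p = 1.31e-07). Gmnn, coding for geminin, the inhibitor of CDT1, rose by 1.33 ± 0.16 at day 5 and 1.53 ± 0.16 at 1 month; the other genes with the smallest adjusted p were Timeless, Gins1 and Uhrf1. Of 48 further mitosis genes 37 rose and 0 fell at day 5, and 44 rose and 0 fell at 1 month, beside the same shares of all genes. Incenp, the scaffold of the passenger complex, rose by 1.10 ± 0.11 and 1.39 ± 0.11, and Racgap1, a cytokinesis gene, by 0.99 ± 0.11 and 1.64 ± 0.12; Tacc3, Trip13, Melk and Nek2 were the others with the smallest adjusted p. In these lists an E2F word stood in 13 of 25 replication windows (52%) and a CHR word in 24 of 41 mitosis windows (58.5%).

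The genes that decide on entry into the cycle did not all rise. Of the 3 D cyclin genes, Ccnd2 fell at both times: it had 172 to 344 CPM in day 5 mutants (median 226), against 502 to 576 CPM in day 5 wild types (median 528), a log2 change of -1.15 ± 0.14 (edgeR adjusted p = 8.05e-07). At 1 month Ccnd2 had 109 to 174 CPM in mutants (median 136), against 371 to 508 CPM in wild types (median 405), a log2 change of -1.60 ± 0.14 (edgeR adjusted p = 6.01e-09). Neither pair of groups overlapped. Ccnd1 fell at day 5 (-0.67 ± 0.12, edgeR adjusted p = 0.000103) and had 106 to 162 CPM in 1 month mutants and 117 to 180 CPM in 1 month wild types (-0.05 ± 0.12). Ccnd3 rose at day 5 (0.70 ± 0.17) and not detectably at 1 month (0.17 ± 0.17, edgeR adjusted p = 0.433). The partner kinase genes Cdk4 and Cdk6 rose at both times, Cdk4 by 0.55 ± 0.15 and 0.91 ± 0.15 and Cdk6 by 0.75 ± 0.20 and 0.69 ± 0.20, as did the phosphatase gene Cdc25a by 0.52 ± 0.10 and 0.33 ± 0.10, and Cdk2 rose at 1 month (0.45 ± 0.12).

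Of 7 inhibitor genes of cyclin-dependent kinases, 6 were tested; Cdkn2a was too low, at 0.352 CPM or less in every library. Cdkn1c, coding for p57, fell at both times: it had 34.5 to 57.6 CPM in day 5 mutants (median 40.7), against 71.8 to 98.2 CPM in day 5 wild types (median 87.3), a log2 change of -1.01 ± 0.22 (edgeR adjusted p = 0.000765). At 1 month Cdkn1c had 13.4 to 26.4 CPM in mutants (median 19.8), against 46.9 to 150 CPM in wild types (median 78.6), a log2 change of -2.11 ± 0.23 (edgeR adjusted p = 9.81e-08). The groups did not overlap at either time. Cdkn1b (p27) fell by 0.66 and 0.43 and Cdkn2c (p18) by 0.38 and 0.54 on the log2 scale, while Cdkn2d (p19) rose at day 5 (0.69 ± 0.17). Cdkn1a (p21), a target of p53, had 154 to 207 CPM in day 5 mutants and 188 to 231 CPM in day 5 wild types, a log2 change of -0.19 ± 0.15 that did not pass the test (edgeR adjusted p = 0.336).

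Of 19 pocket protein, E2F, DREAM complex and MYC genes, 7 rose and 3 fell at day 5, and 9 rose and 4 fell at 1 month, where 20.7% and 25.5% of all genes were higher and 20.2% and 21.5% lower, so the counts that fell are near the share over all genes. The repressor genes E2f7 and E2f8 rose by 1.67 ± 0.23 and 1.26 ± 0.18 at day 5 and 1.95 ± 0.23 and 1.83 ± 0.19 at 1 month; Tfdp1, coding for the DNA-binding partner of E2F proteins, rose by 0.79 ± 0.10 and 1.06 ± 0.10, and E2f3 by 0.80 ± 0.14 and 1.03 ± 0.14. Rbl2, coding for the pocket protein p130 of resting cells, fell by 0.35 and 0.44 on the log2 scale, and Tfdp2 by 0.51 and 0.68; Lin52 and E2f6 fell at 1 month by 0.63 and 0.40. Myc had 114 to 152 CPM in day 5 mutants (median 132), against 51.7 to 67.2 CPM in day 5 wild types (median 58), a log2 change of 1.2 ± 0.10 (edgeR adjusted p = 6.19e-09), and rose by 0.55 ± 0.10 at 1 month. Mycn changed direction: it had 0.229 to 0.653 CPM in day 5 mutants (median 0.421), against 1.22 to 1.85 CPM in day 5 wild types (median 1.41), and 1.65 to 4.81 CPM in 1 month mutants (median 3.26), against 0.291 to 2.07 CPM in 1 month wild types (median 1.11). The Mycn log2 fold change was -1.76 ± 0.37 at day 5 (edgeR adjusted p = 0.000470) and 1.59 ± 0.32 at 1 month (edgeR adjusted p = 0.000243). Of 12 ubiquitin ligase genes of the cycle 2 rose at day 5 and 4 at 1 month, near the shares over all genes (20.7% and 25.5%), and 0 fell. Skp2, which marks p27 for degradation, rose by 0.76 ± 0.18 and 1.25 ± 0.18; the others were Anapc1 at both times and Fbxo5 and Fzr1 at 1 month.

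Markers of several cell types differed between mutant and wild-type ears, some higher and some lower in mutants. The summed level of 4 wound keratins (Krt6a, Krt6b, Krt16 and Krt17, 4 of 4 higher at both times) was 1152 to 10969 CPM in day 5 mutants and 184 to 257 CPM in day 5 wild types, and 6310 to 14549 CPM in 1 month mutants and 282 to 853 CPM in 1 month wild types. The basal keratinocyte sum was 14021 to 18451 CPM in day 5 mutants and 12531 to 17363 CPM in day 5 wild types, and 13933 to 23381 CPM in 1 month mutants and 11410 to 17592 CPM in 1 month wild types, so it overlapped at both times. Its 7 markers moved both ways: Krt14 and Itga6 rose and Krt15 and Col17a1 fell at both times, Krt15 by 2.52 and 3.24 on the log2 scale, and at 1 month Krt5 rose and Itgb4 fell as well. The macrophage sum (5 of 6 markers higher at day 5 and 6 of 6 at 1 month) was 267 to 857 CPM in day 5 mutants and 181 to 221 CPM in day 5 wild types, and 341 to 564 CPM in 1 month mutants and 149 to 261 CPM in 1 month wild types. The neutrophil sum (3 of 4 tested markers higher at both times, the fourth, Mpo, lower at day 5 by a log2 change of -2.08 and not called at 1 month with -1.38, Ly6g listed at 0 in every day 5 wild type) was 46.6 to 247 CPM in day 5 mutants and 5.62 to 8.16 CPM in day 5 wild types, and 64.7 to 95.4 CPM in 1 month mutants and 3.89 to 14 CPM in 1 month wild types. The sum of the hair matrix markers, another dividing compartment, was lower at day 5 (23.3 to 43.5 CPM in mutants, 54.1 to 74 CPM in wild types, 3 of 7 tested markers lower and Shh listed at 0 in every mutant) and higher at 1 month (184 to 1145 CPM in mutants, 68.8 to 154 CPM in wild types, 4 of 7 tested markers higher). The part of the hair matrix in the levels of the 49 genes was not tested. The T cell sum was 18.8 to 34.1 CPM in mutants and 41.9 to 56.2 CPM in wild types at day 5 (4 of 6 markers lower, 0 higher), and 20.5 to 36.8 CPM in mutants and 46.3 to 61.7 CPM in wild types at 1 month. Its markers moved both ways at 1 month: Cd3e, Cd3g and Trdc fell and Cd4 (2.19) and Cd8a (2.69) rose on the log2 scale. The fibroblast sum was wholly below at day 5 (4800 to 9460 CPM in mutants and 12986 to 17902 CPM in wild types, 3 of 5 markers lower and 1 higher), with a ratio of means of 0.43. At 1 month its ratio was 1.85 with overlap (11069 to 32072 CPM in mutants and 8058 to 13032 CPM in wild types, 4 of 5 higher and 1 lower). The cartilage sum was 87 to 187 CPM in mutants and 281 to 392.2 CPM in wild types at day 5 (4 of 4 lower), and 94.4 to 219 CPM in mutants and 218 to 542 CPM in wild types at 1 month, where they overlapped (3 of 4 lower), ratios of 0.35 and 0.34. The muscle sum was wholly below at both times (732 to 1383 CPM in mutants and 1852 to 2697 CPM in wild types at day 5, and 286 to 2072 CPM in mutants and 2580 to 9443 CPM in wild types at 1 month, 4 of 4 lower at each). Which cells carried the higher cycle RNA was not tested.

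Within groups the genes of a class varied together. After subtracting group means from log2 CPM, the median correlation over 24 libraries was 0.48 for pairs of S phase genes, 0.49 for pairs of G2 and mitosis genes and 0.27 for pairs across the classes. At day 5 alone, over 12 libraries, these medians were 0.61, 0.57 and 0.41. The pairs share libraries, depth and GC content, and the values are a description.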

How the data were processed

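Whole-ear RNA was sequenced as polyA-selected single-end libraries, per the labels' protocols. The authors deposited 1 table of RSEM expected counts for 51912 Ensembl genes in 24 libraries, of which 6.71% of values were not whole; the submitters' processing notes name STAR 2.5.2, RSEM 1.3.0, DESeq2 1.14.1 and GRCm38, with no role or order. Symbols came from GENCODE M21 (51633 IDs found, 279 not). Expected counts were rounded, and edgeR 4.0.16 (R 4.3.3) fitted all 24 libraries with TMM scaling, filterByExpr (17287 genes kept), a robust quasi-likelihood F test, two-sided, and Benjamini-Hochberg adjustment over all genes tested; a call is an adjusted p below 0.05. CPM are TMM-scaled. The scripts were tested on simulated data. Levels per kilobase and GC content used the longest coding transcript. DESeq2 1.42.0, limma voom 3.58.1, other scalings and filters, a replicate block and the leaving out of libraries were alternatives; library GC correlation as a covariate was added after seeing the data.

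The 49 genes, their classes and the other lists were chosen with earlier results of these data known. Values per library are given for the 4 genes of each class with the smallest adjusted p at each time, for every gene called in the interaction and for every gene not called at a time. The other lists are represented by up to 4 genes with the smallest adjusted p in each mutant contrast and up to 4 called against their list. Cdca8 and Cdc20 in mutants over time, and genes with exon overlaps, were named after their values were seen. No 2 libraries of the same group agreed within sampling noise (smallest chi-square per degree of freedom 4.856). Libraries of different groups were not compared in this way.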

Additional observations from a re-analysis of the deposited data

Results flagged for a closer look

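In 6 of the 49 genes the effect of the mutation differed between 1 month and day 5 by the interaction test (edgeR adjusted p below 0.05). Over all genes 4.68% were called higher and 4.09% lower in this test. Leaving out single libraries gave 1 to 8 calls. Without the 4 libraries low in Y-linked genes 9 were called (9.58% of all genes), and Plk1, Cdc20 and Kif20a were not among them. The difference of log2 fold changes, 1 month minus day 5, was 0.55 for Rrm1, 0.81 for Plk1, 0.64 for Bub1b, 0.83 for Cdc20, 0.66 for Kif20a and 0.57 for Foxm1. From the other lists it was 0.60 for Melk (edgeR adjusted p = 0.0427) and 0.65 for Racgap1 (adjusted p = 0.0118), both mitosis genes, and 0.61 for Ccnd1 (adjusted p = 0.0232). It was negative for Cdkn1c (-1.10, adjusted p = 0.0278), Lin52 (-0.47, adjusted p = 0.0488) and Myc (-0.65, adjusted p = 0.00486). Mycn, with 3.34 (adjusted p = 7.85e-05), had effects of opposite sign at the 2 times.

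Among 208 sets of 6 libraries tested (49 genes and 3 class sums in 4 groups), 2 held a library far from the others. Chance gives about 1 in 20 of the sets, so 2 of 208 are fewer than chance would give. Mcm6 was at 66.19 CPM in day 5 wild-type replicate 6, against 53.7 to 56.3 CPM in the other 5. Bub1b was at 38.61 CPM in day 5 mutant replicate 3, against 46.9 to 51.2 CPM in the other 5.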

How the results depend on the processing

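The counts of genes higher in mutants stayed within 1.5 times under every setting tried, at 42 to 44 at day 5 and 45 to 48 at 1 month when single libraries were left out. At day 5 the count was 49 with limma voom and with only the libraries compared, and 47 with the GC covariate. At 1 month it was 49 with limma voom, 44 with only the libraries compared and 46 with the GC covariate. The median 1 month change of the S phase class, 1.33, was 1.14 with limma voom and 1.02 without the 4 libraries low in Y-linked genes. Its median interaction, 0.34, was 0.055 and 0.073 under the same settings, and its median change in mutants over time, 0.08, was -0.22 and -0.16. The interaction count of 6 was 1 with no filter, 10 with library GC correlation as a covariate, 21 with limma voom and 1 to 8 on leaving out single libraries; no interaction could be had from fits of only the libraries compared. In mutants over time the count of 0 was 1 with DESeq2, RLE size factors, total counts or the GC covariate, 6 with limma voom, 4 without the 4 libraries and 0 to 1 on leaving out single libraries. In wild types over time the count of 11 was 5 with no filter, 7 with only the libraries compared, 18 with the GC covariate, 31 with limma voom and 5 to 18 on leaving out single libraries. With the GC covariate 28.6% of all genes were higher at day 5, 31.8% at 1 month and 8.48% in the interaction. In wild types over time 6.64% of all genes were lower with it, against 2.81% in the main fit. Apart from the fit without the 4 libraries, shares of all genes under the other settings are not given, so those counts cannot be set against them.

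Among values with an adjusted p below 0.05, signs turned against the main fit for Mcm7 with limma voom, in the interaction (-0.34) and in mutants over time (-0.26). In mutants over time they turned for Gins2 (-0.44 with limma voom, -0.50 without the 4 libraries), Tk1 (-0.33 with limma voom) and Cenpe (0.75 without the 4 libraries). Signs of values that did not pass the test turned in further genes, such as Gins2 in the interaction (as low as -0.27) and Mcm2 in mutants over time (as low as -0.22). The cause was not tested in any of these.

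Same-numbered mutants and wild types did not deviate together: the correlations of their deviations were -0.158 to 0.051 at day 5 and -0.733 to 0.258 at 1 month, so the numbers were not treated as pairs. Such correlations cannot exclude a pairing, because libraries can share an origin without deviating together. With a replicate block the counts were 43 at day 5, 45 at 1 month, 4 in the interaction, 0 in mutants over time and 6 in wild types over time. All 49 passed the filter on low counts.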
